A study of Mus musculus with 18 samples.

Results

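The 47 genes described here encode chromatin regulators measured by ribosome profiling in the mouse embryo at E11.5. They were chosen by symbol: every gene whose symbol begins with Kmt, Kdm, Setd, Chd and a digit, Smarc, Arid, Brd, Hdac, Ncor, Kat, Ep300, Ep400, Crebbp or Tet and a digit, among the 3379 genes for which a symbol was held. They are 47 of the 12241 genes in the deposited tables and have 46 symbols, since Chd3 appears as 2 transcripts (uc029rmh.2 and uc029rmi.2). All 47 had values in the mesoderm table of 12064 genes and in the neural tube and forelimb table of 11231 genes.

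The symbols came from 2 gene lists that the authors had ordered by translational efficiency and that were held only in part, so these members were selected on measured values. The mesoderm list (1997 genes held; 1773 of the 1958 that are no members had mesoderm TE below the median of all genes) named 39 of them, and the list of TE differences between neural tube and forelimb (1998 genes held) named 33, with 25 in both. Low TE in the mesoderm is therefore a description for the 14 members named by the mesoderm list only. TE between NT and FL is a description for the 8 members named by the other list only (Ep300, Kdm3a, Kdm4b, Kdm4c, Kdm5b, Kdm7a, Smarca2 and Smarcad1). Tests are given only where the naming list did not use the libraries tested: mesoderm TE for the 33 members of the NT and FL list, and NT and FL values for the 39 members of the mesoderm list, each of which that list would have named without the other. Chromatin regulators of other TE carry no symbol here and were not analysed.

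Chromatin regulators set which genes a cell can use. Methyltransferases of the KMT and SETD families write methyl marks on histone tails and KDM demethylases remove them, acetyltransferases and histone deacetylases do the same for acetyl groups, CHD and SWI/SNF ATPases move nucleosomes, and TET enzymes oxidise methylated cytosine in DNA. Many of these genes are dosage-sensitive in development of the limb, skeleton and nervous system.

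Ribo-Seq counts ribosome-protected fragments (RPFs), which report translation, and RNA-Seq counts mRNA; both had 3 libraries for each of 3 tissues, 18 in all. Mesoderm was GFP+ cells, sorted after trypsin, from embryos that carried 1 copy each of the R26-mTmGflox reporter and of the Tg(T-cre)1LWD/J transgene, in which T-Cre switches a membrane reporter on in primitive-streak derivatives, so the sort holds every lineage that descends from T-expressing cells and not a single tissue. The neural tube (NT) and the forelimb bud (FL) were microdissected from the same FVB embryos, and cells were split between Ribo-Seq and RNA-Seq. The labels do not say which NT and FL libraries share embryos, and the main fit took them as unpaired. All tissues were handled in cycloheximide, which halts elongating ribosomes. Recovered depth on coding sequence was 11000015 to 16802829 reads a library in mesoderm Ribo-Seq, 16710643 to 31993255 in NT, 12967893 to 17231298 in FL and 24555103 to 50136443 in RNA-Seq. The labels number the replicates without saying whether they are separate litters, so p-values measure the spread between these libraries. Values are normalized reads (reads on a gene divided by the authors' library size factor). TE is log2(RPF normalized reads + 1) minus log2(RNA normalized reads + 1), given relative to the median of all genes, which is 0 on this scale. Where TE is given by library, the RNA-Seq library of the same number was subtracted in the mesoderm. In NT and FL the mean log2 value of the 3 RNA-Seq libraries of the tissue was subtracted. Spread between RNA-Seq libraries thus enters the TE by library of the mesoderm only. The mesoderm and the NT and FL tables were normalized separately, so normalized reads are compared within a table only.

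Few markers of cell type had a symbol. Dcx, the doublecortin of migrating neurons and 1 of 14 neural markers found, was at 2675, 7953 and 6797 normalized reads in NT RNA-Seq and 345, 301 and 343 in FL. Msx1, a limb mesenchyme homeobox gene and 1 of 9 found, was at 3815, 3928 and 3349.7 in FL RNA-Seq and 1161, 668 and 633 in NT. Both markers were higher in their own tissue in every library. Hba-x, an embryonic globin and 1 of 7 blood markers found, was at 2250.5, 12367 and 4719 in mesoderm RNA-Seq, highest in replicate 2; in Ribo-Seq it was at 9339.6, 84280.2 and 18362 in mesoderm, 49354, 48778 and 66360.4 in NT and 128515, 164781 and 84882 in FL. Tcf15, a somite transcription factor and 1 of 7 mesoderm markers found, was at 519.6, 837 and 749.9 in mesoderm RNA-Seq, 436, 125 and 53 in NT and 83.2, 90.2 and 143 in FL, and no endothelial marker of 5 was found. In RNA-Seq, NT replicate 1 thus had the lowest Dcx and the highest Msx1 and Tcf15 of NT, and it correlated with NT replicates 2 and 3 at r = 0.946 and 0.949, where those correlated at 0.970; mesoderm replicate 1 correlated with 2 and 3 at 0.939 and 0.953, where those correlated at 0.987. The part of blood or other cells in the values below was not tested, and fewer cells of a type cannot be told apart from less RNA per cell in these bulk samples.

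The Ribo-Seq libraries of replicate 3 stood apart in NT and FL. Across all genes, NT replicates 1 and 2 correlated at r = 0.989, and with replicate 3 at 0.933 and 0.934; FL replicates 1 and 2 correlated at 0.976, and with replicate 3 at 0.886 and 0.896. The members lay on the side that differed: NT replicate 3 was the lowest NT Ribo-Seq library for 43 of 47 members, against 42.5% of all genes, and FL replicate 3 was the highest FL library for 44 of 47, against 43.0%. For 32 of 47 members NT replicate 3 had fewer RPFs than FL replicate 3, against 50.3% of all genes. Among the 39 members of the mesoderm list alone, which NT and FL libraries did not select, these counts were 35, 36 and 26. The NT and FL counts and the TE changes of leading members are therefore given with and without replicate 3.

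**Figure D1:**
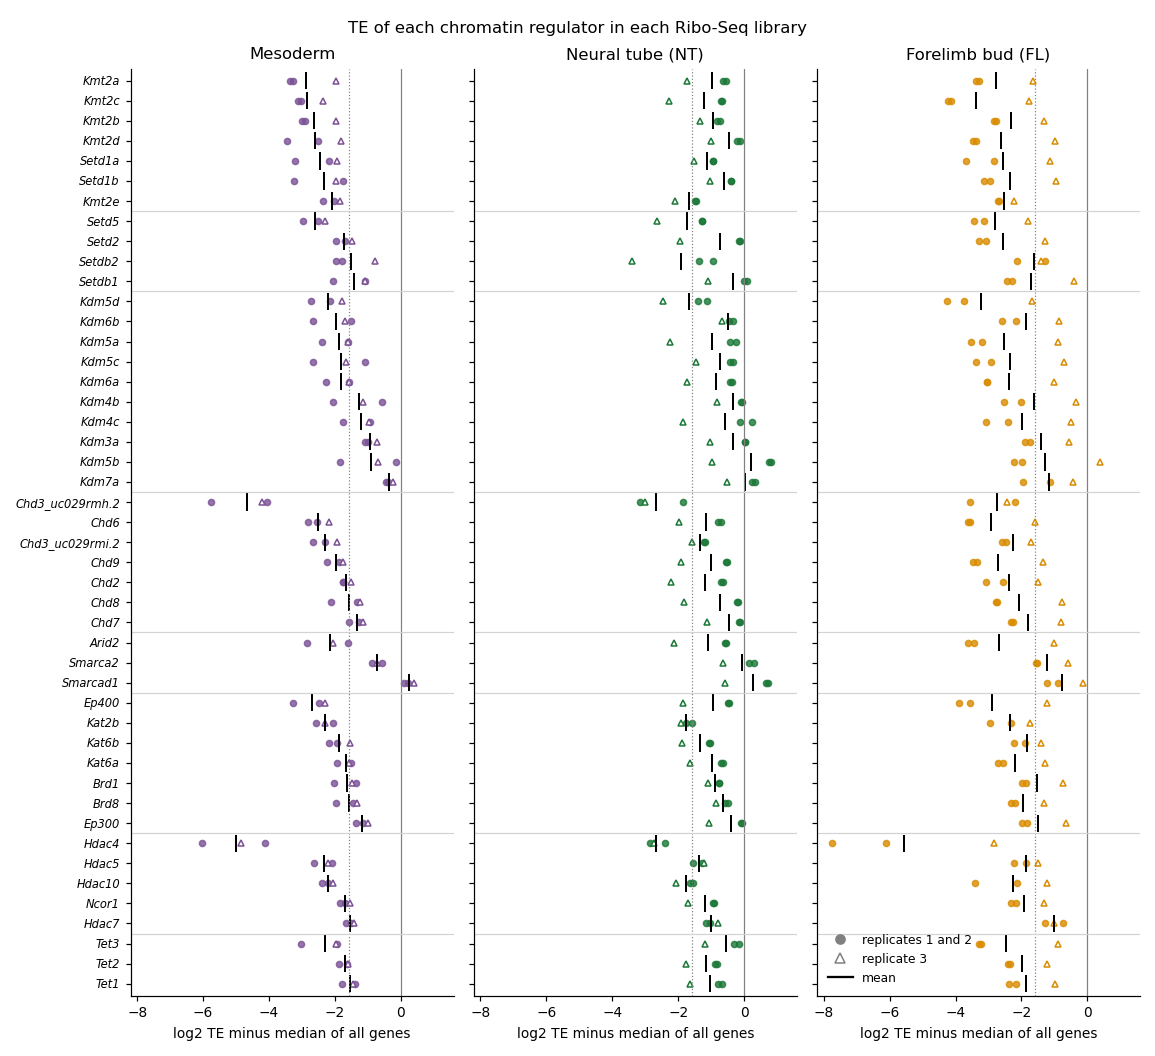
TE of the members reported by name (log2, relative to the median of all genes at 0) in the mesoderm, NT and FL; each mark is a Ribo-Seq library, the open triangle is replicate 3, the black tick is the mean of 3 and the dotted line is 3-fold below the median. In the mesoderm the mean of Smarcad1 alone lies right of 0, and in NT and FL the triangle lies apart from the filled circles for most members.

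In the mesoderm, mRNAs of chromatin regulators carried few ribosomes for their abundance. The median log2 TE was -1.82 over the 33 members that can be tested, and 22 of them were TE-low, at least 3-fold below the median of all genes at an adjusted p under 0.05 (limma with a term for replicate); 10.9% of all 12064 genes were TE-low. None was TE-high. As a description, since 14 of the 47 members were named by the mesoderm list only, the median of all 47 was -1.75, -2.18 and -1.59 in the 3 libraries. The 5th percentile of all genes was -2.08, -2.47 and -2.00. Both were lowest in replicate 2, the library in which Hba-x was highest. The same share was 23.2% (443 of 1910) among the other genes of the NT and FL list and 42.5% (437 of 1028) among those of them that, like the members, had lower TE in FL than NT. Among roles with more than 1 tested member the H3K4 methyltransferases had the lowest median: all 6 tested were TE-low, with a median of -2.61. Of the 10 demethylases 5 were TE-low, with a median of -1.53. The highest member was Smarcad1, an ATPase that remodels nucleosomes during replication and repair, at 0.23 ± 0.17 (SE, 3 libraries), not separable from the median of all genes at adjusted p = 0.24.

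The threshold of 3-fold is -1.58 on the log2 scale and ran between neighbours: Brd8 at -1.59 was called and Chd8 at -1.56 was not. Both changed sides when a replicate was left out, Brd8 to -1.39 without replicate 1 and Chd8 to -1.72 without replicate 3. With a replicate left out the count of TE-low members was 19 to 23 of 33.

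The start regions of the lowest and the highest mesoderm TE are shown side by side, because translation begins at the start codon they hold. They are the 4 lowest and the 4 highest members with over 10 RPF reads in every mesoderm library and an annotated leader of at least 10 bases, read 5′ to 3′ from GENCODE vM21 transcripts (GRCm38, the mm10 build of the files), 10 bases before and 14 after the start codon, with the AUG as ATG in capitals.
Kmt2a: cggggcgaacATGgcgcacagctgtcg
Kmt2c: ggtgactaggATGtcgtcggaggagga
Ep400: ggaggtgataATGcaccatggcagtgg
Kmt2d: ggagagagggATGgacagccagaagcc
Kdm5b: ggtcgcggtgATGgagccggccaccac
Smarca2: ggagacctagATGtccacacccacaga
Kdm7a: ttttttaaagATGgccggagcggcggc
Smarcad1: tcctcccaatATGaatcttttcaactt
The first 4 are the lowest (log2 TE -2.87, -2.85, -2.69 and -2.60) and the last 4 the highest (-0.90, -0.73, -0.35 and 0.23). The start codons lie in coding exons at chr9:44881272-44881274 (- strand, Kmt2a), chr5:25498548-25498550 (- strand, Kmt2c), chr5:110756729-110756731 (- strand, Ep400), chr15:98866718-98866720 (- strand, Kmt2d), chr1:134560339-134560341 (+ strand, Kdm5b), chr19:26619720-26619722 (+ strand, Smarca2), chr6:39206632-39206634 (- strand, Kdm7a), chr6:65043256-65043258 (+ strand, Smarcad1). An A or G 3 bases before the AUG together with a G right after it, the letters favoured for initiation, was present in 2 of the 4 lowest (Kmt2a and Kmt2d) and 2 of the 4 highest (Kdm5b and Kdm7a). Setd5, not shown, tied with Kmt2d at -2.60 and lacked this pair of letters, so the count among the lowest rests on the tie. Over all members the pair was present in 22 of the 45 symbols with a leader (48.9%), and over all annotated protein-coding genes in 41.0%. An upstream AUG stood in the annotated leader of 30 of 45 member symbols (66.7%), of 60.6% of the other named genes and of 53.9% of all protein-coding genes. Median leader length ran in the same order, at 285, 196 and 157 bases, and its part in these shares was not tested. The transcript with the longest coding sequence (CDS) was taken for each gene and may differ from the isoform the authors counted.

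The members share long coding sequences. Length was no criterion of the choice, but symbols came from lists ordered by TE, which ran opposite to CDS length. The length contrasts below are therefore not independent of the choice. The median CDS was 5281 nucleotides over the 46 symbols, against 1800 for the 3117 other named genes and 1194 for all 21484 protein-coding genes in the annotation, and 40 of 46 (87.0%) were at least 3000 nucleotides long, against 29.6% and 11.0%. CDS length and TE ran in opposite order in the mesoderm: Spearman's rho was -0.37 over 46 members and -0.55 over 3076 other named genes, as a description over genes that share libraries and that the lists chose by TE. In FL rho was -0.41 over members and -0.7 over 2961 others. In NT it was 0.03 over members and -0.34 over 2961 others, so the members showed no such order there. Among genes with a CDS of at least 3000 nucleotides, the median mesoderm log2 TE was -1.84 over 40 members and -1.69 over 914 others; in FL it was -2.27 over 40 members and -1.98 over 882 others. The part of length in the low TE of the members was not tested.

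**Figure D2:**
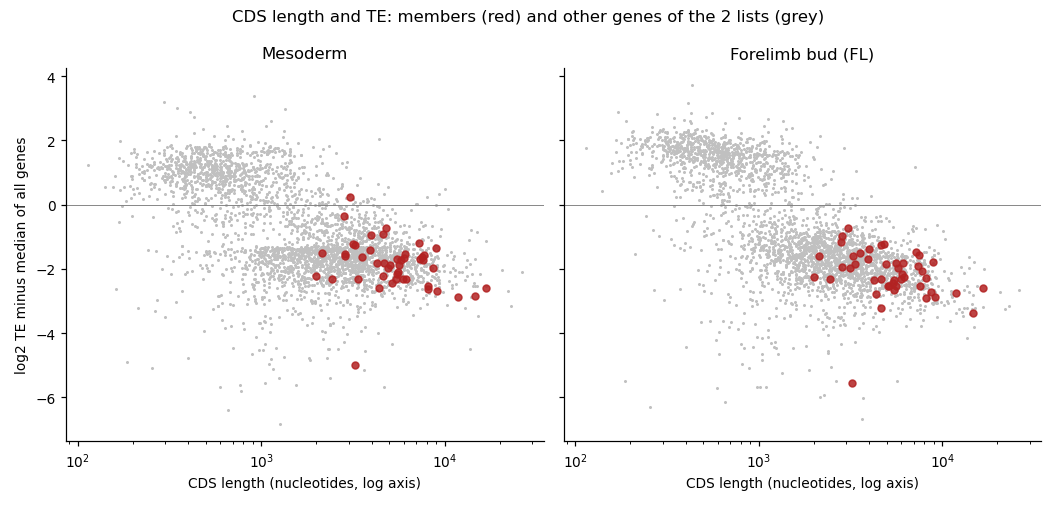
CDS length (nucleotides, log axis) against log2 TE relative to the median of all genes in the mesoderm and FL; red points are 46 member symbols and grey points the other genes of the 2 lists. The members sit at the long end, where the other named genes also lie below 0.

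In NT and FL the 3 measures gave different pictures. Members of the mesoderm list, 39 genes, had fewer RPFs in FL than in NT: 29 were lower (at least 2-fold, adjusted p under 0.2, limma), against 19.7% of all genes, and none was higher, against 15.5%. Their mRNA scarcely differed: 2 were lower in FL (Chd7 and Hdac5), against 10.2% of all genes, and none was higher, against 8.71%. The median log2 change, FL minus NT, was -1.33 for RPFs and 0.00 for mRNA. Among the other genes of the mesoderm list with mesoderm TE below 0, 45.0% (728 of 1616) had lower RPFs in FL. In terms of separate libraries, all 3 NT values lay above all 3 FL values for 11 of the 39 (28.2%), against 21.1% of all genes. The count of lower RPFs was 34 of 39 without replicate 3 (26.6% of all genes), and 14 of 39 without replicate 1 (14.2%) or replicate 2 (14.3%). Of the 29 calls, 14 held under every alternative run and 15 were lost under at least 1, among them 5 with edgeR or DESeq2 and 9 when a single Ribo-Seq library was left out.

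The TE difference itself, the change in RPFs beyond the change in mRNA, did not pass the limma test for any of these members with all 12 libraries. The median log2 TE change, FL minus NT, was -1.37 over the 39 members and 38 of 39 were below 0, against a median of 0.01 over all genes, but limma called 0 of 39 lower and 0 higher at an adjusted p under 0.2 and 2-fold, where 0.276% and 0.125% of all genes were called. At an unadjusted p under 0.05 the count was 21 of 39, against 16.9% of all genes. Among the other genes of the mesoderm list with mesoderm TE below 0 it was 467 of 1616, with a median change of -0.80. edgeR called 0 of 39 lower (0.187% of all genes lower, 0.16% higher) and DESeq2 called 3 of 39, Kmt2a, Kmt2d and Brd8 (2.54% lower, 5.06% higher). The DESeq2 share was 7.7% of the 39 and 8.1% of the 1771 other genes of the mesoderm list. Replicate 3 decided this count. Without it 34 of 39 were lower, with a median of -2.10, and none was higher, while 22.3% of all genes were lower and 20.7% higher. Of the other genes of the mesoderm list, 53.0% (939 of 1771) were also lower without it, with a median of -1.14. Without replicate 1 or without replicate 2 no gene of the table was called. Leaving out only the FL Ribo-Seq library of replicate 3 gave 33 of 39 and only the NT one 31 of 39. The share of all genes is not given for these runs, so these counts are not read as particular to the members.

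**Figure D3:**
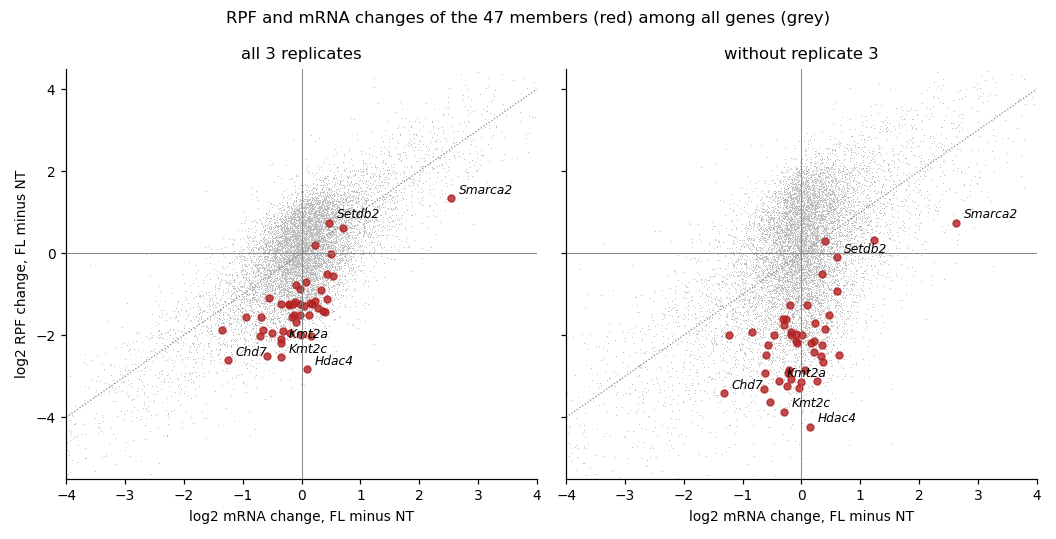
Change in mRNA (x axis) against change in RPFs (y axis), log2 FL minus NT, for all genes (grey) and the 47 members (red), with all 3 replicates (left) and without replicate 3 (right); the dotted diagonal marks equal change. Most members lie below the diagonal near an mRNA change of 0, and their median RPF change is -1.33 on the left and -2.18 on the right.

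The spread of TE over all genes moved with the same libraries. From the 5th to the 95th percentile of all genes, TE ran from -1.52 to 1.00 in NT replicate 1 and from -1.47 to 0.98 in replicate 2, but from -1.99 to 1.35 in replicate 3. In FL it ran from -2.94 to 2.04 and from -2.83 to 2.03 in replicates 1 and 2, and from -1.61 to 1.05 in replicate 3. The members followed: their median was -0.58, -0.56 and -1.63 in the 3 NT libraries and -2.58, -2.68 and -1.13 in the 3 FL libraries. By rank, 23.9%, 24.4% and 8.6% of all genes lay below the members' median in NT and 7.5%, 5.9% and 11.9% in FL; in the mesoderm the figures were 8.1%, 7.4% and 9.7%. These medians and ranks take all 47 members, some of them chosen by TE in the same libraries, and are a description only. The order of TE by CDS length moved too: over 2961 other named genes, rho was -0.18, -0.19 and -0.53 in NT and -0.75, -0.75 and -0.48 in FL. Over 46 members it was 0.08, 0.11 and -0.13 in NT and -0.41, -0.41 and -0.18 in FL. What sets these library differences was not tested.

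**Figure D4:**
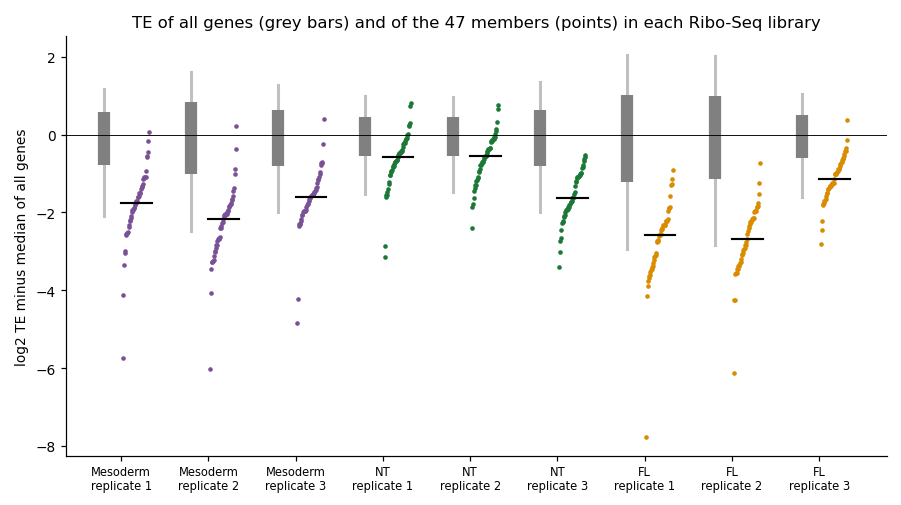
Log2 TE relative to the median of all genes in each Ribo-Seq library; thick grey bars span the 25th to 75th percentile and thin bars the 5th to 95th percentile of all genes, coloured points are the 47 members in order of value and black lines their median. The members' median lies below 0 in all 9 libraries, lowest in FL replicates 1 and 2 and highest in NT replicates 1 and 2.

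Within each tissue, 36 of the 39 members were TE-low in FL (3-fold, adjusted p under 0.05), against 13.4% of all genes and 71.8% (1160 of 1616) of the other genes of the mesoderm list with mesoderm TE below 0. Brd1 (-1.50) and Hdac7 (-0.99) were among those not called. The count was 38 of 39 without replicate 3 (18.2% of all genes), 24 without replicate 1 (8.2%) and 27 without replicate 2 (8.16%). In NT 8 of 39 were TE-low, against 4.13% of all genes and 23.9% (386 of 1616) of those other genes: Chd3 uc029rmh.2, Kmt2e, Kat2b, Hdac10, Hdac4, Kdm5d, Setd5 and Setdb2. Chd3 uc029rmh.2 is in the FL and NT counts on 11, 3 and 10 RPF reads in FL and 7, 17 and 4 in NT. Hdac4 is in them on 0, 1 and 20 in FL and 38, 47 and 21 in NT. The size of these calls rests on few reads, and in FL each Chd3 transcript is counted. Without replicate 3 the NT count was 2 of 39 (3.53% of all genes), and it was 4 without replicate 1 (2.98%) and 1 without replicate 2 (2.4%), the last close to the share of all genes. Over 46 member symbols, the order of TE in the mesoderm and in FL had rho = 0.84, in the mesoderm and NT 0.59 and in NT and FL 0.53; NT and FL libraries share a table, and all 3 share the genes' sequence.

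Among the H3K4 methyltransferases, Kmt2a (MLL1) maintains Hox gene expression, Kmt2b acts on promoters, Kmt2c and Kmt2d mark enhancers, Setd1a and Setd1b write most promoter H3K4 trimethylation, and Kmt2e is a divergent relative.

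Kmt2a (chr9:44803355-44881296, - strand) was at 9879.8, 8552 and 8886 normalized reads in the 3 mesoderm RNA-Seq libraries and at 1006, 882 and 2321 in Ribo-Seq, highest in replicate 3. Its mesoderm log2 TE was -2.87 ± 0.26 (SE; adjusted p = 8e-06, limma), 7.32-fold below the median of all genes. Its mRNA was at 9903, 13899 and 12448 in NT and 9075, 8853 and 10158 in FL, and the ranges overlap. RPFs of Kmt2a were at 7887, 8413 and 3750.2 in NT and 962, 910.1 and 3004 in FL, so every NT library lay above every FL library, by the least in replicate 3. The RPF change was -2.19 ± 0.41 (adjusted p = 0.00097) and the TE change -1.83 ± 0.58 (adjusted p = 0.29), or -2.73 ± 0.23 without replicate 3.

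Kmt2c, the member of this group with the largest TE change, had mesoderm RPFs of 779, 382 and 1000.4 on mRNA of 6156, 3338 and 5031, a log2 TE of -2.85 ± 0.20. Its mRNA was at 5902, 11266 and 9593 in NT and 6801, 6501 and 7039.9 in FL, and its RPFs at 5426, 5524 and 1853 in NT and 385, 362 and 2016 in FL. NT replicate 3 lay below FL replicate 3, so the RPF groups overlap. The TE change of Kmt2c was -2.19 ± 0.81, and -3.58 ± 0.35 without replicate 3. Kmt2e, which the mesoderm list alone named, had the highest mesoderm log2 TE of the group, -2.09, from RPFs of 1245, 714 and 1029.7 on mRNA of 6207, 2918 and 3637. In Ribo-Seq it was at 2205, 2258 and 1474 in NT and 725, 748 and 1035 in FL, all NT above all FL, and it was the member of the group that was TE-low in NT (-1.65 ± 0.27, adjusted p = 0.0013).

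The others lay close to them. Mesoderm log2 TE was -2.62 for Kmt2b, -2.60 for Kmt2d, -2.45 for Setd1a and -2.32 for Setd1b. In FL all 7 were TE-low, from -3.37 (Kmt2c) to -2.29 (Kmt2b), while in NT they ran from -1.65 (Kmt2e) to -0.44 (Kmt2d). Kmt2d lost the FL call without replicate 1 (-2.10). In limma RPFs were lower in FL for all 7, from -2.54 (Kmt2c) to -1.24 (Kmt2e). Setd1a (-1.25) lost that call with DESeq2 and edgeR (-0.87 each) and without the FL Ribo-Seq library of replicate 1 alone (-0.67), and the other 6 kept it under every alternative run. Their mRNA was called for none, with changes from -0.36 (Kmt2a) to 0.19 (Setd1a).

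**Figure D5:**
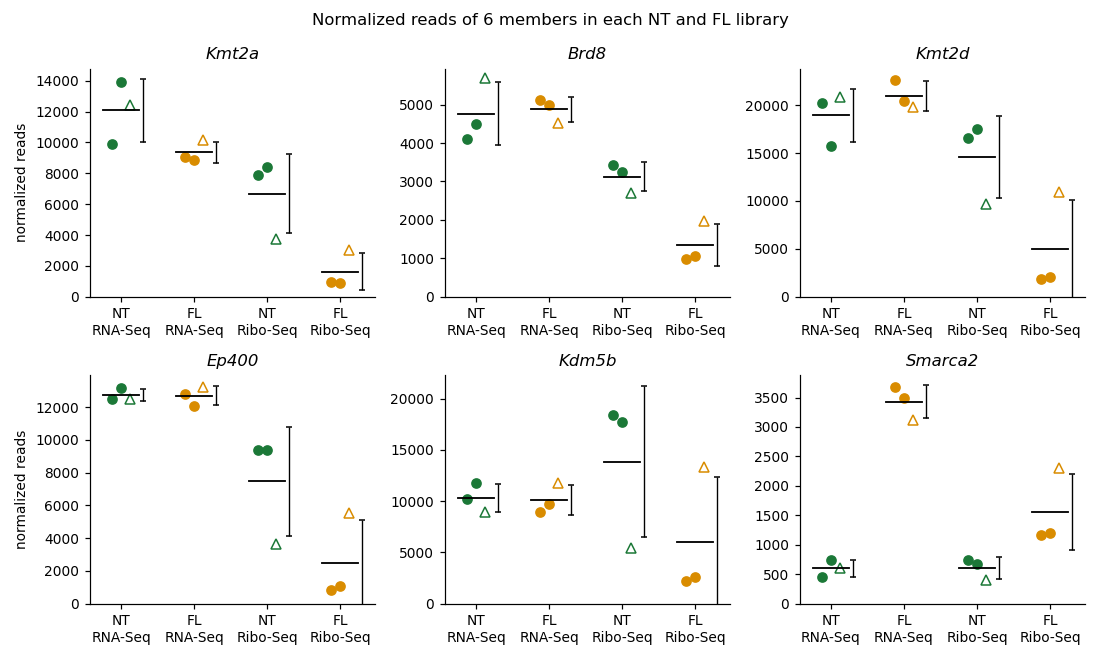
Normalized reads of Kmt2a, Brd8, Kmt2d, Ep400, Kdm5b and Smarca2 in each NT (green) and FL (orange) library; filled circles are replicates 1 and 2, the open triangle is replicate 3, lines are means and bars the SD of 3 libraries, drawn down to 0 at most. RNA-Seq values of the tissues overlap except for Smarca2, and in Ribo-Seq replicate 3 is the lowest NT and the highest FL library in all 6.

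The other SET domain genes were Setd2, which writes H3K36 trimethylation, Setdb1 and Setdb2, which methylate H3K9, and Setd5, whose enzymatic role is debated. Setd5 was the lowest in the mesoderm, with RPFs of 1792, 942 and 1606 on mRNA of 9944, 7399 and 7691 and a log2 TE of -2.60 ± 0.19 (TE-low). RPFs of Setd5 were at 2805, 2761 and 1094 in NT and 1090.4, 880.3 and 2774 in FL, which overlap, and it was TE-low in both (-1.72 and -2.78). Setd2 was TE-low in the mesoderm at -1.72 ± 0.18 and had the largest TE change of the group, -1.84 ± 0.75, or -3.03 ± 0.40 without replicate 3. Its mRNA was at 3469, 7287 and 5189.5 in NT and 6611, 6372 and 7246 in FL, and its RPFs at 4789.5, 4705 and 1384 in NT and 808, 695 and 2817 in FL. Here too NT replicate 3 fell among the FL values.

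Setdb1 had the highest mesoderm log2 TE of the group at -1.41 ± 0.22, under the 3-fold threshold, from RPFs of 2815, 1010.2 and 1869.8 on mRNA of 5719.8, 4171 and 3912. Its RPFs were at 4252, 4587 and 2047 in NT and 917, 1017 and 3777 in FL, with a change of -1.17 ± 0.44 that passed in limma (adjusted p = 0.047). That call was lost under 7 alternatives, at -0.93 with DESeq2, -0.94 with edgeR, -0.64 without replicate 1 and -0.66 without replicate 2. Setdb2 was the single member whose fitted TE change was above 0 (0.28 ± 0.76), with RPFs of 160.5, 119 and 29 in NT and 172, 95.9 and 161 in FL. Its RPF change of 0.74 did not pass the test and was -0.10 without replicate 3.

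The 10 demethylases remove methyl groups from H3K9 (Kdm3a, Kdm4b, Kdm4c), H3K4 (Kdm5a to Kdm5d), H3K27 (Kdm6a, Kdm6b) or H3K9 and H3K27 (Kdm7a). In the mesoderm with all libraries, the 5 that were TE-low were Kdm5a (-1.87), Kdm5c (-1.82), Kdm5d (-2.23), Kdm6a (-1.81) and Kdm6b (-1.96). Kdm3a (-0.95), Kdm4b (-1.26), Kdm4c (-1.22), Kdm5b (-0.90) and Kdm7a (-0.35) were not called, and these are 5 of the 8 members that only the NT and FL list named. This division moved with the replicates, as Kdm5c (-1.38) and Kdm6a (-1.58) lost the call without replicate 2 and Kdm4b (-1.61) gained it without replicate 1. The NT and FL list held all 10, and the fitted TE change ran from -1.61 (Kdm5c) to -1.09 (Kdm3a).

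Kdm7a, the highest of them, had mesoderm RPFs of 846, 338 and 653 on mRNA of 1102, 438 and 745; its TE of -0.35 ± 0.17 had an adjusted p of 0.088. In Ribo-Seq it was at 2269, 2439 and 1377 in NT and 555, 313 and 903 in FL, all NT above all FL. Kdm5d, on the Y chromosome and so read only from male embryos, was the lowest, with RPFs of 444, 197 and 438 on mRNA of 1891, 1318 and 1477. In FL it had 51, 27 and 232 RPF reads, normalized to 81.8, 57.5 and 346, and in NT 529, 642 and 258. Kdm5c, its X-linked relative, had RPFs of 6345, 6752 and 3138 in NT and 986, 1351 and 6344 in FL, on mRNA of 8023, 8451 and 8556 in NT and 9842, 10845 and 9675 in FL. In replicates 1 and 2 its RPFs were higher in NT, and in replicate 3 they were higher in FL. Kdm5c and Kdm5d are close relatives and only uniquely mapped reads were counted, so their levels are uncertain.

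RPFs of Kdm5c, Kdm5d, Kdm5a, Kdm6a and Kdm6b were lower in FL, from -1.90 (Kdm5d) to -1.12 (Kdm6a), in limma with all libraries. Under the alternatives run Kdm6b alone kept the call: Kdm6a lost it with DESeq2 (-0.88), edgeR (-0.89) and without replicate 2 (-0.55), Kdm5c with DESeq2 (-0.90), edgeR (-0.91) and without replicate 1 (-0.65), and Kdm5a (-0.82 and -1.09) and Kdm5d (-1.52 and -1.13) without replicate 1 or 2. Kdm5b, which removes H3K4 methylation, had 18402, 17747 and 5382 in NT Ribo-Seq and 2182, 2600.3 and 13327 in FL, on mRNA of 10167, 11777 and 8965 in NT and 8945, 9725 and 11754 in FL. In replicates 1 and 2 NT was far above FL, and in replicate 3 FL was above NT.

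The CHD remodellers include Chd3, a subunit of the NuRD complex, Chd7, the gene of CHARGE syndrome, and Chd8, a gene of autism. In the mesoderm 3 of the 5 tested were TE-low: Chd6 (-2.52), Chd9 (-1.96) and Chd2 (-1.68). Chd6, with the largest TE change of the group, had RPFs of 1391, 628 and 1405 on mRNA of 7810.5, 4472 and 6230.1 in the mesoderm. Its RPFs were at 3871, 4127 and 1739.5 in NT and 706, 727 and 2893 in FL, on mRNA of 4097, 7902 and 8753 in NT and 9015, 8649.8 and 7825 in FL. Chd6 had a TE change of -1.78 ± 0.70, or -3.11 ± 0.36 without replicate 3.

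Chd7 had the highest mesoderm log2 TE of the group, -1.34 ± 0.18, from RPFs of 3478, 2218 and 2692 on mRNA of 8057, 6626 and 5875. It was 1 of the 2 members whose mRNA was lower in FL, 4269, 4467 and 5233 against 9095, 13122 and 11380.2 in NT (-1.26 ± 0.37, adjusted p = 0.026). Its RPFs were at 10129, 10464 and 5336 in NT and 936, 985 and 2699 in FL (-2.61 ± 0.37, adjusted p = 0.00011), so neither measure overlaps between the tissues. The first Chd3 transcript, uc029rmi.2, had a mesoderm log2 TE of -2.31 and did not pass the test of RPFs between tissues (-0.52). The second, uc029rmh.2, had 1, 2 and 3 RPF reads in the mesoderm libraries, at or under a floor of 3 reads, on mRNA of 128, 84.6 and 139.8 normalized reads, and no fold is read from it. It had 7, 17 and 4 RPF reads in NT and 11, 3 and 10 in FL. Reads that both transcripts share cannot be assigned to either.

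Of the SWI/SNF type genes, Arid2, a subunit of the PBAF complex, was TE-low in the mesoderm at -2.17 ± 0.23, with RPFs of 3088, 878 and 1804 on mRNA of 8929.6, 6269.9 and 7361. Its RPFs were at 5401, 5520.5 and 1896 in NT and 712, 797 and 4392 in FL, on mRNA of 6403, 9849 and 7780.3 in NT and 8536, 8079.8 and 9295 in FL. In replicate 3 NT lay below FL, and the TE change was -1.63 ± 0.81, or -2.92 ± 0.27 without replicate 3. Smarcad1 was at 3708, 1197 and 1978 in mesoderm Ribo-Seq and 3361, 1015 and 1469 in RNA-Seq, lowest in replicate 2 of both. In NT its RPFs were 5179.8, 4915 and 2147 and in FL 1419, 1125 and 2429.

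Smarca2, the BRM ATPase of SWI/SNF, was the member whose mRNA differed most between the tissues. Its mRNA was at 448, 739 and 611 in NT and 3677, 3486 and 3126 in FL, a change of 2.54 ± 0.31 on the log2 scale. RPFs were at 748, 668 and 397 in NT and 1167, 1198 and 2298 in FL, a change of 1.34 ± 0.31. Both measures were higher in FL without overlap, the RPFs by less than the mRNA. As the NT and FL list named it, these values are a description. Its mesoderm log2 TE, which can be tested, was -0.73 ± 0.17 and under the 3-fold threshold.

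The acetylation group holds Ep300, a coactivator acetyltransferase, Ep400, the ATPase of the TIP60 complex, Brd8, a bromodomain subunit of that complex, the acetyltransferases Kat2b, Kat6a and Kat6b, and Brd1, a scaffold of acetyltransferase complexes. Ep400 was lowest in the mesoderm, with RPFs of 2388, 1510.2 and 2518 on mRNA of 12921, 14461 and 12071 and a log2 TE of -2.69 ± 0.22 (adjusted p = 4.7e-06). Its mRNA was nearly level across NT (12484, 13139.5 and 12508) and FL (12799.8, 12089 and 13197), while NT Ribo-Seq gave 9403, 9368 and 3641 and FL Ribo-Seq 859.5, 1078 and 5521. The RPF change of -1.99 ± 0.55 passed the test (adjusted p = 0.011), although NT replicate 3 lay below FL replicate 3. The TE change was -1.99 ± 0.78, or -3.24 ± 0.20 without replicate 3.

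Brd8 was at 7361, 4314 and 4414 in mesoderm RNA-Seq and 1936, 1591 and 1791 in Ribo-Seq, with a log2 TE of -1.59 ± 0.19 (adjusted p = 4.5e-05), 3.01-fold below the median. Its mRNA was at 4106, 4506 and 5694 in NT and 5129.6, 4999 and 4519 in FL and overlapped. RPFs of Brd8 were at 3423, 3249 and 2712 in NT and 991, 1070.0 and 1978 in FL, all NT above all FL. The RPF change was -1.28 ± 0.25 (adjusted p = 0.0014) and the TE change -1.33 ± 0.36 (adjusted p = 0.29), or -1.93 ± 0.19 without replicate 3.

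Ep300, named by the NT and FL list only, was the highest of the group in the mesoderm at -1.18 ± 0.18 and was not TE-low, from RPFs of 3307, 2313 and 3213 on mRNA of 7079, 5899 and 6323. RPFs of Ep300 were at 7874, 8098 and 4114 in NT and 1926, 2114 and 4802 in FL. Kat6a was TE-low in the mesoderm (-1.66), and Kat2b (-2.32), Kat6b (-1.89) and Brd1 (-1.63) are descriptions, as the mesoderm list named them. In FL minus NT, RPFs were lower for Ep400, Brd8, Kat6a (-1.25) and Kat2b (-1.55), and Brd1 (-0.77) and Kat6b (-0.02) did not pass. Brd8 and Kat2b kept the call under every alternative run, Ep400 lost it without replicate 1 (-1.26) or 2 (-1.42), and Kat6a without replicate 1 (-0.82) or 2 (-0.92) and without the FL Ribo-Seq library of replicate 1 alone (-0.99).

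Deacetylases and corepressors remove acetyl marks or recruit the enzymes that do. Hdac4, Hdac5 and Hdac7 are class IIa deacetylases that shuttle between nucleus and cytoplasm, Hdac10 deacetylates polyamines, and Ncor1 is a scaffold of nuclear receptor corepressor complexes. Hdac4, a regulator of cartilage maturation, had the lowest fitted TE of all members, from few reads: 6, 2 and 5 RPF reads in the mesoderm, on mRNA of 166, 332 and 343 normalized reads. Its log2 TE of -5.00 ± 0.38 passed the test (adjusted p = 3.4e-06) but its size rests on these few reads. In NT it had 38, 47 and 21 RPF reads and in FL 0, 1 and 20, on mRNA of 223, 159 and 223 in NT and 172, 253 and 222 in FL. Its fitted TE change of -2.93, the largest among members, depends on a library with no RPF read, and it gives no fold.

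Hdac7 and Hdac5 went differently from most members. Hdac7 had RPFs of 1305, 1197 and 1576 in NT and 1273, 1846 and 1547 in FL on mRNA of 2403, 2470.1 and 2966 in NT and 3280.5, 3122 and 2775 in FL, and the TE change was -0.04 ± 0.28. For it replicate 3 was neither the lowest NT nor the highest FL library. In the mesoderm it was at 1117, 1365 and 1648 in Ribo-Seq and 3069, 4328 and 4262 in RNA-Seq, a log2 TE of -1.53. Hdac5 was the other member whose mRNA was lower in FL, 3086, 3074 and 2775 against 8338, 6252 and 8395 (-1.35 ± 0.22, adjusted p = 0.0004). Its RPFs were 646, 827 and 1069 in FL and 2627, 3188 and 3398 in NT (-1.88 ± 0.22, adjusted p = 1.7e-05), so that the TE change was -0.53 ± 0.31 and was not called without replicate 3 either. Hdac10 (mesoderm log2 TE -2.23) had an RPF change of -1.09 that passed in limma but not with DESeq2 (-0.85) or edgeR (-0.87), and it was -0.52 without the FL Ribo-Seq library of replicate 1 alone. The RPF change of Ncor1 (mesoderm log2 TE -1.70), -0.69, did not pass.

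The TET genes were Tet1, Tet2 and Tet3, the dioxygenases of 5-methylcytosine. Tet3 was TE-low in the mesoderm at -2.32 ± 0.23, with RPFs of 1315, 853 and 1811 on mRNA of 4869, 6893 and 6988. Its mRNA was at 8728, 7463 and 8391 in NT and 5605, 5576 and 5219 in FL, and its RPFs at 6770.1, 7518 and 3754 in NT and 588, 569 and 3023 in FL, all NT above all FL. The RPF change was -2.52 ± 0.50 (adjusted p = 0.0014) and the TE change -1.94 ± 0.70, or -3.09 ± 0.19 without replicate 3. Tet1, the highest in the mesoderm at -1.55, had RPFs of 523, 199 and 354 on mRNA of 1327, 694 and 940.4. RPFs of Tet1 were at 796, 733 and 415 in NT and 271, 234 and 627 in FL, and the change of -0.86 did not pass. Tet2 lay between them, with a mesoderm log2 TE of -1.71 and an RPF change of -1.54 that passed.

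Per length of CDS, the members spanned a wide range of levels. Among those with over 10 RPF reads a library, mean mesoderm mRNA was highest for Chd3 uc029rmi.2 at 3460 normalized reads per kb, followed by Kdm6b at 1940, Setd5 at 1930, Kdm5c at 1920 and Brd8 at 1910, and lowest for Kat2b at 94.7. In mesoderm RPFs per kb the order changed: Kdm5b led at 1020, ahead of Smarcad1 at 763 and Chd3 uc029rmi.2 at 735, and Kat2b was last at 18.9. Setd5, the third by mRNA, had 335 RPF normalized reads per kb. These are means of 3 libraries with the CDS of the longest annotated transcript and were not tested.

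The other chromatin genes on a list of 159 (Polycomb, NuRD, SET, INO80 and DNA methylation genes, among others), of which 53 had a symbol, were read in the same fits. These genes too were named through lists ordered by TE. In the mesoderm 15 of the 31 that can be tested were TE-low, against 10.9% of all genes, with a median log2 TE of -1.51 and a range from -3.57 to 0.68. The share was 23.2% over all genes of the NT and FL list that are no members. It was 42.5% over those of them with lower TE in FL than NT. In FL 31 of 38 were TE-low, against 13.4% of all genes, with a median of -2.05, and 22 of 38 had lower RPFs in FL than NT, against 19.7%. Over the genes of the mesoderm list that are no members and had mesoderm TE below 0, these shares were 71.8% and 45.0%. The median log2 TE change of the 38 was -1.12, and 13 of 38 had an unadjusted p under 0.05 in limma, against 16.9% of all genes. None of the 38 passed the adjusted test. Over the same genes of the mesoderm list with mesoderm TE below 0, 467 of 1616 had an unadjusted p under 0.05, with a median of -0.80.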

How the data were processed

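Ribo-Seq and polyA RNA-Seq of mesoderm, neural tube and forelimb (3 libraries each, 18 in all) were used as deposited. The authors trimmed reads, mapped them to mm10 with Bowtie2 and counted unique reads on the coding sequence of canonical UCSC isoforms, leaving off 15 codons at the start and 5 at the end. Library size factors from DESeq then scaled the counts. The deposited values are therefore a normalized signal and not counts. Whole reads were recovered from the steps between values in all 18 libraries, within 0.005 normalized reads, and used for the count tests edgeR 4.0.16 and DESeq2 1.42.0.

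limma 3.58.1 (R 4.3.3) was fitted to log2(value + 1) across all genes of each table, with Benjamini-Hochberg adjustment and two-sided tests. Fold changes of low genes are therefore inexact, in either direction. For Hdac4 the TE change was -2.93 in limma, -1.58 in edgeR and -1.61 in DESeq2. In the mesoderm a term for replicate was included, since same-numbered libraries deviated together (correlations 0.74, 0.58 and 0.57), and TE was centred on the median of all genes. TE-low means at least 3-fold below it at an adjusted p under 0.05. NT and FL differences needed 2-fold and an adjusted p under 0.2. The authors' 2 ordered lists paired identifiers with symbols. Which genes they held also set the members, the tested members and the comparison genes. Comparison values in the lists were not used. The members, role groups and lists were chosen with earlier results of these data known. Genes named with a value in every library were Kmt2a, Brd8 and, for each role, the members with the lowest and highest mesoderm TE and the largest TE change between NT and FL; Setdb2, Kdm5b, Smarca2 and Hdac5 were added after their values were seen. On simulated data 200 of 200 8-fold changes were recovered in the mesoderm (12064 genes) and 165 of 200 4-fold TE changes between NT and FL (11231 genes). Of the genes left unchanged, 0 were called in the mesoderm and 37 between NT and FL. The simulation held no library set apart across genes, as replicate 3 was. Its counts therefore do not give the power of the NT and FL test on these data. Alternatives were other pseudocounts, a minimum mean of 100, the replicate term, the count tests, centring, thresholds and leaving out each replicate. Sequence features came from GENCODE vM21 (GRCm38). Values of 1 member are not reported here, and the counts include it.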

Additional observations from a re-analysis of the deposited data

How the results depend on the processing

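Of the values for single members, mesoderm TE kept its side of the threshold in 289 cases under the alternatives run, gained the call in 4 and lost it in 4; FL TE did so in 548, 5 and 31 cases, and RPF changes in 543, 14 and 58. The count of 22 TE-low members in the mesoderm was 19 to 23 without a replicate and 22 with no replicate block. The count of members with lower TE in FL than NT was 0 with all libraries, 3 with DESeq2, and 0 to 34 without a replicate or 1 Ribo-Seq library (31 without that of NT replicate 3, 33 without that of FL replicate 3). The count of lower RPFs (29) was 14 to 34, and the NT TE-low count (8) was 1 to 8, at 3 without the NT Ribo-Seq library of replicate 3. For NT and FL, shares of all genes are given above for runs without a replicate. They are not given for runs without 1 Ribo-Seq library. With a replicate block in NT and FL the counts were 0 for TE (5 of 11231 genes), 29 for RPFs (19.6% of all genes), 7 for NT (3.8%) and 36 for FL (13.3%). Equal numbers of NT and FL did not deviate together. Their correlations were -0.29, -0.5 and -0.58 in Ribo-Seq and -0.02, -0.22 and -0.24 in RNA-Seq. Directions turned for 3 members near 0: the Kat6b RPF change of -0.02 ran from -0.51 to 0.31 (0.00, 0.11, 0.12, 0.15 and 0.18 among them), that of Hdac7, 0.19, from -0.03 (without replicate 2) to 0.32, and that of Setdb2, 0.74, from -0.10 (without replicate 3) to 1.27. The cause was not tested. Values under 10 RPF reads, as for Hdac4, are limited by depth.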
